A study of Homo sapiens with 4 samples.

Results

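The control siRNA libraries of 2 human lung cancer cell lines, HCC827 and H1299, were set against each other to describe how the lines differ before CDH3 is silenced. The members are genes whose deposited TPM (transcript abundance per length, scaled to a fixed sum in each library) reached 5 in one library or both, which kept 12564 of the 58174 genes in the table, and 2 of the 4 samples of the series. Both groups were lung cancer cells transfected for 48 h with a control siRNA (siCTR), 1 library per group, and neither carries an siRNA against CDH3. The other 2 libraries, of the same lines 48 h after an siRNA against CDH3 (siCDH3), serve below as a further pair that the choice of members did not use. All 4 groups share the transfection, and nothing in the labels says that libraries came from separate cultures. Each group is 1 established line, so a difference between them is a difference of 2 individual tumours' descendants and not of 2 tumour classes. The sources used here do not give the siRNA sequences, and TPM keeps no read depth, so no counting interval can be given.

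H1299 cells were grown from a lymph node metastasis of a non-small cell lung carcinoma and are known for an NRAS mutation. HCC827 is a lung adenocarcinoma line known for a small activating deletion in EGFR, the epidermal growth factor receptor, and for extra copies of that gene. Carcinoma lines are often placed on an axis from an epithelial state, in which cells are joined by E-cadherin, tight junctions and desmosomes over a keratin skeleton, to a mesenchymal state with N-cadherin and vimentin. Repressors of the ZEB and SNAIL families bind E-box sequences in epithelial genes and are known to drive the shift between these states.

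Genes encoded by the mitochondrial genome took 36.2% and 34.4% of all TPM in the siCTR and siCDH3 libraries of HCC827, against 13.5% and 16.4% in those of H1299. Each column was therefore rescaled to a common sum without these 37 genes, and TPM below means the rescaled value unless called deposited. The filter, and the counts of list genes that reached it in a library, use deposited TPM. Where a line is given 2 values, the first is its siCTR library and the other its siCDH3 library; a single value is siCTR. A difference is the log2 ratio of TPM + 1, HCC827 over H1299, and a gene was counted as higher or lower when it was at least 2-fold apart on that scale. With 1 library a side this pair has no test and no replicate check. Of the 12564 genes, 2444 (19.5%) were higher in HCC827, 2330 (18.5%) were lower and 7790 lay within 2-fold, with a median log2 ratio of 0.02. Without rescaling the split was 1672 higher and 3498 lower, and the median moved by 0.41 to -0.40, so directions near 0 depend on the scaling. The shares of 19.5% and 18.5% are the background for the 2-fold counts of every list below, and a count near them is not a result about the list. A member that passed the filter through only 1 line had to have the higher deposited TPM there. The medians of lists with such members therefore describe the genes compared and not the whole list.

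The differences were large and recurred in the siCDH3 pair. A difference of 4-fold or more was seen for 1137 higher and 998 lower genes of the control pair, and one of 16-fold or more for 428 and 229. A set of 400 genes reached 10 TPM in HCC827 and stayed under 0.5 TPM in H1299, and 339 of these did so in the siCDH3 pair too; the reverse pattern held for 242 genes, of which 199 recurred. In the siCDH3 pair 2650 of 12505 genes were higher and 2239 lower. Of the genes higher in the control pair 2041 were also higher there (83.5% of the control list and 77.0% of the siCDH3 list), and 1825 were lower in both (78.3% and 81.5%). The median absolute log2 ratio between the lines was 0.74, against 0.19 between the siRNAs within H1299 and 0.13 within HCC827. A limma fit on all 4 libraries, 2 per line, called 4227 of 12904 genes (32.8%) higher in HCC827 and 3730 (28.9%) lower at an adjusted p under 0.05. Its spread is that between the 2 siRNA treatments of a line, not between replicate cultures. The shares of 32.8% and 28.9% are the background for the limma counts of the lists below, and a limma count near them is not a result about the list. Of the 2-fold genes of the control pair, 2342 (95.8%) of the higher and 2199 (94.4%) of the lower were called in the same direction. The control libraries are part of that fit, so the overlap is not independent of the control pair. Without HCC827 siCDH3 the fit called 2412 higher and 2201 lower, and without HCC827 siCTR 2394 and 2231.

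**Figure D1:**
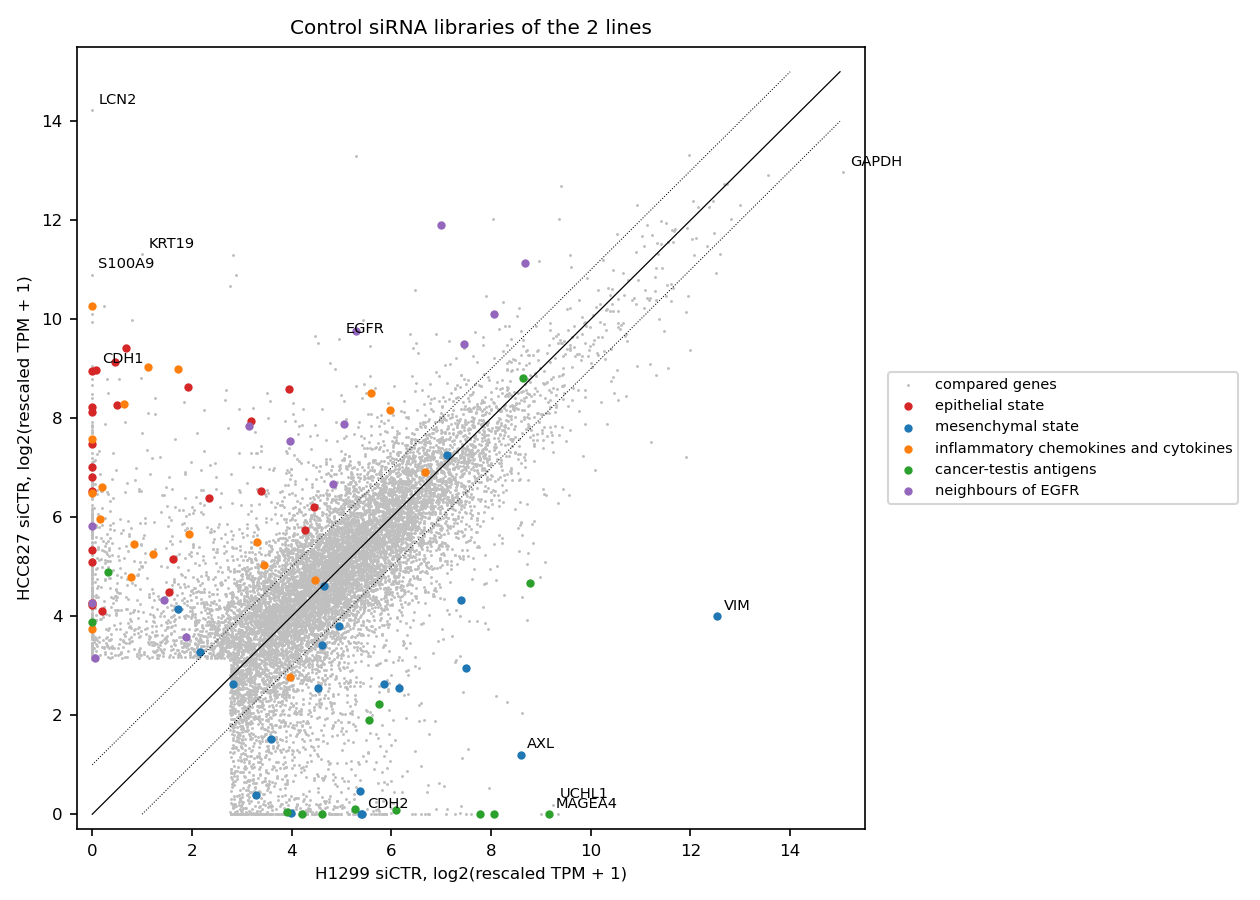
Each point is 1 gene, with log2(rescaled TPM + 1) in H1299 siCTR on the x axis and in HCC827 siCTR on the y axis. The solid line marks equal values and the dotted lines a 2-fold difference. The 25 epithelial genes all lie above the upper dotted line, many of them at the left edge where H1299 is at or near 0, and vimentin (VIM) lies far to the right.

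The classical cadherins separated the lines. E-cadherin (CDH1), which holds epithelial cells together, was at 504 and 669 TPM in HCC827 and 0.0573 and 0.0413 in H1299. P-cadherin (CDH3), its relative in basal and glandular epithelium and the gene silenced in the other pair, was at 271 and 120.03 TPM in HCC827 and 1.39 and 0.202 in H1299. In H1299 siCTR this target of the siRNA is already below the 5 TPM filter. N-cadherin (CDH2), the cadherin of neural and mesenchymal cells, was at 40.8 and 27.2 TPM in H1299 and listed at 0 in both HCC827 libraries. The CDH1 and CDH3 levels of both HCC827 libraries lie above those of both H1299 libraries, and CDH2 is listed at 0 in HCC827. In bulk libraries of this kind, fewer cells making a transcript and less of it per cell cannot be told apart. The log2 ratios in the control pair were 8.90, 6.83 and -5.38. In the limma fit CDH1 differed by 9.11 ± 0.18 (SE, limma adjusted p = 3.28e-05), CDH3 by 6.74 ± 0.52 (SE, limma adjusted p = 0.000669) and CDH2 by -5.10 ± 0.22 (SE, limma adjusted p = 0.000121).

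Of 15 listed cadherins, catenins and nectins 10 were compared, 5 were higher in HCC827 and 2 lower, with a median of 1.29. That median depends on the settings: it was 0.17 without a filter, 0.54 with a filter of 20 TPM, 0.91 with one of 1 TPM, 0.86 on deposited TPM and 0.98 with a pseudocount of 5. Plakoglobin (JUP), a catenin shared by adherens junctions and desmosomes, was at 511 and 487 TPM in HCC827 and 28.3 and 29.2 in H1299. The nectin NECTIN4 was at 18.4 TPM in HCC827 and 0 in H1299, while NECTIN2 went the other way at 62.6 TPM in HCC827 and 260.1 in H1299. The catenins bound to any classical cadherin were nearer to equal: CTNNB1 (beta-catenin) was at 181 TPM in HCC827 and 95.9 in H1299 and CTNNA1 (alpha-catenin) at 312 TPM in HCC827 and 361 in H1299. limma called 6 of the 10 higher and 2 lower.

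The epithelial genes were higher in HCC827 as a block. All 25 listed genes of the epithelial state were compared and at least 2-fold higher in HCC827, with a median log2 ratio of 5.34, beside 19.5% of all compared genes and a median of 0.02. Of these genes 5 reached a deposited TPM of 5 in H1299 siCTR and 25 in HCC827 siCTR, so most entered the comparison through HCC827 alone. EPCAM, an epithelial surface glycoprotein, was at 684 and 622 TPM in HCC827 and 0.594 and 0.342 in H1299. The ratio of EPCAM was 8.75, and limma gave it 8.80 ± 0.15 (SE, limma adjusted p = 3.28e-05).

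Epithelial transcription factors were part of the block. ELF3 was at 559 TPM in HCC827 and 0.378 in H1299, EHF at 129 TPM in HCC827 and 0 in H1299, GRHL2 at 33.3 TPM in HCC827 and 0 in H1299 and OVOL1 at 18.3 TPM in HCC827 and 0 in H1299. The splicing regulator ESRP1, which sets epithelial exon choices, was at 309 and 304 TPM in HCC827 and 0.415 and 0.902 in H1299. The membrane proteases ST14 (matriptase) and PRSS8 (prostasin) were at 277 TPM in HCC827 and 0 in H1299 and 177 TPM in HCC827 and 0 in H1299, and their inhibitor SPINT1 at 397 TPM in HCC827 and 2.78 in H1299. The smallest differences of the list were those of the polarity genes PATJ, with a log2 ratio of 1.49, and LLGL2, with 1.77. limma called all 25 higher.

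Tight junctions followed. Of 19 listed genes 15 were compared, 13 were higher and 0 lower, with a median of 2.60. CLDN7, a claudin of the lung and gut epithelium, was at 443 and 457 TPM in HCC827 and 0.235 and 0.118 in H1299. The tricellular junction protein MARVELD2 was at 31.1 TPM in HCC827 and 0.149 in H1299, and the polarity gene CRB3 at 67.8 TPM in HCC827 and 1.62 in H1299. CLDN4 was at 256 and 21.996 TPM in HCC827 and 10.5 and 12.4 in H1299, so its line difference was smaller in the siCDH3 pair, with log2 ratios of 4.48 and 0.78. The scaffold TJP1, used by many cell types, was at 44.2 TPM in HCC827 and 73.6 in H1299. limma called 12 higher and 1 lower.

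Desmosomes and keratins differed less evenly. Of 14 listed desmosome genes 10 were compared, 6 were higher and 0 lower, with a median of 1.56. Beside JUP, EVPL was at 10.6 TPM in HCC827 and 0.304 in H1299 and the desmosomal cadherins DSC2 and DSG2 at 16.3 TPM in HCC827 and 1.67 in H1299 and 174 TPM in HCC827 and 41.7 in H1299. Desmoplakin (DSP) was within 2-fold, at 43.3 TPM in HCC827 and 27.5 in H1299. Of 17 keratins 7 were compared, 5 were higher and 0 lower, with a median of 1.74. KRT19, a keratin of simple epithelia, was at 2549 and 2397 TPM in HCC827 and 1.010 and 0.889 in H1299. KRT7, typical of lung adenocarcinoma, was at 1901 and 1598 TPM in HCC827 and 6.34 and 12.2 in H1299. The pair KRT8 and KRT18, made by nearly all carcinomas, was high in both lines, with KRT8 at 1064 TPM in HCC827 and 366 in H1299 and KRT18 at 768 TPM in HCC827 and 398 in H1299. limma called 7 desmosome genes higher and 1 lower, and 6 keratins higher and 0 lower.

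The mesenchymal list went the other way. Of 28 listed genes 20 were compared, 15 were lower in HCC827 and 2 higher, with a median of -2.98, beside 18.5% lower among all compared genes. Vimentin (VIM), the intermediate filament of mesenchymal cells, was at 15.1 and 12.5 TPM in HCC827 and 5952 and 6052 in H1299, and it was among the 10 most abundant genes of H1299 siCTR. The receptor kinase AXL was at 1.31 and 1.003 TPM in HCC827 and 386 and 379 in H1299. The limma difference was -8.67 ± 0.14 (SE, limma adjusted p = 3.28e-05) for VIM and -7.48 ± 0.13 (SE, limma adjusted p = 3.28e-05) for AXL.

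Among the repressors, ZEB1 was at 0.392 and 0.421 TPM in HCC827 and 40.1 and 24.6 in H1299. ZEB2 was at 0.0118 TPM in HCC827 and 14.8 in H1299, and TWIST1 at 0 TPM in HCC827 and 41.7 in H1299. SNAI1 (SNAIL) went against the list, at 16.8 and 16.8 TPM in HCC827 and 2.28 and 3.08 in H1299, as did COL1A1 at 8.74 TPM in HCC827 and 3.49 in H1299. Fibronectin (FN1), often used as a mesenchymal marker, was near equal at 152 TPM in HCC827 and 138 in H1299, and TWIST2 was at 23.5 TPM in HCC827 and 23.99 in H1299. The ZEB1 difference in limma was -4.53 ± 0.25 (SE, limma adjusted p = 0.000246). In the list as a whole limma called 2 genes higher and 15 lower. The list median in the siCDH3 pair was -2.12 over the same genes and -1.86 over the members that passed the filter in that pair.

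The E-box bound by ZEB and SNAIL repressors (CACCTG on either strand, so also CAGGTG) was looked for in the RefSeq promoters at hand, each 250 bases before to 50 after a gene's start. Among all 27305 promoters 20.6% hold it, and among the promoters of compared protein-coding genes 18.3%. Of the 19 tight junction genes 16 have a promoter there and 5 of these hold the motif (31.25%). The same count over the epithelial (6 of 11), desmosome (4 of 10) and mesenchymal (3 of 17) lists is void, because under 80% of each list has a promoter at hand. No share was tested against these backgrounds. The mesenchymal genes that hold the motif are ZEB1, S100A4 and AXL, all lower in HCC827. So were 15 of the 20 compared genes of that list, so their direction says nothing about the motif. The tight junction genes that hold it are CLDN3, CLDN18, OCLN, CRB3 and TJP1. Of these, CRB3 was higher in HCC827 and TJP1 lay within 2-fold, and levels of the others are not given here. The sequences of ELF3 and RAB25 (a small GTPase of epithelial vesicle traffic, at 112 TPM in HCC827 and 0 in H1299) show the motif in its setting, on the plus strand of GRCh38.p14, at chr1:202010427-202010526 and chr1:156061079-156061178. The capitals mark the E-box, which begins at position -120 in ELF3 and -41 in RAB25 relative to the annotated start, and binding was not measured.
ELF3: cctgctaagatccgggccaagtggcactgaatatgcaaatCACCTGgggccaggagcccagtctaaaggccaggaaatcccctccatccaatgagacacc
RAB25: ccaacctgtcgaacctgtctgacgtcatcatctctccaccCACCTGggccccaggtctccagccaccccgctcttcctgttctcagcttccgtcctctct

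The largest ratios in favour of HCC827 belonged to genes of several kinds. LCN2 (lipocalin 2), an iron-siderophore binding protein of the innate defence, was at 19220.4 and 20503 TPM in HCC827 and 0 and 1.20 in H1299, and at 1.92% of rescaled TPM it was the most abundant gene of HCC827 siCTR. S100A9, a subunit of calprotectin, was at 1908 and 2363 TPM in HCC827 and listed at 0 in both H1299 libraries, and complement factor B (CFB) at 1007 and 893 TPM in HCC827 and 0.737 and 0.909 in H1299. Among the 15 highest were also CXCL5, PDZK1IP1, S100A6, DEFB4A, AGR2, SAA1 and SFTA2 beside KRT19, CDH1, EPCAM and ELF3. The defensin DEFB4A was at 984 TPM in HCC827 and 0 in H1299 and serum amyloid SAA1 at 499.7 TPM in HCC827 and 0 in H1299, but both have near-identical copies between which reads can be split, so their levels are uncertain. The mucosal protein AGR2, a disulfide isomerase of secretory cells, was at 532 TPM in HCC827 and 0 in H1299. All 15 differed in the same direction in the siCDH3 pair. limma called all 15 higher, but its fit includes the control libraries that ranked them, so these calls are not separate support.

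The 15 lowest ratios were led by cancer-testis antigens. GAGE2A was at 0 TPM in HCC827 and 647 in H1299 and MAGEA4 at 0 TPM in HCC827 and 572 in H1299. With GAGE12G, GAGE1, GAGE12F, GAGE2E, CTAG1B, CTAG1A and CSAG1, these genes of the X chromosome made up 9 of the 15. Most of these 9 have nearly identical copies, so the level of any one such copy is uncertain. The others were UCHL1 (a neuronal ubiquitin hydrolase), at 0.144 and 0.831 TPM in HCC827 and 608 and 585 in H1299, MFAP2 (a microfibril protein), at 263 and 307 TPM in H1299 and listed at 0 in both HCC827 libraries, ANXA6 (an annexin), at 0.452 TPM in HCC827 and 248 in H1299, AK5 (an adenylate kinase of the brain), at 0.0150 TPM in HCC827 and 164 in H1299, and VIM and AXL. At the other end, the genes nearest to equal among those with at least 100 TPM in both libraries were DDOST (308 and 308 TPM in HCC827 and H1299), DDX17 (190.3 and 191), RPL12 (6837 and 6818), GTF3C5 (114 and 114) and TPGS2 (116 and 116).

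**Figure D2:**
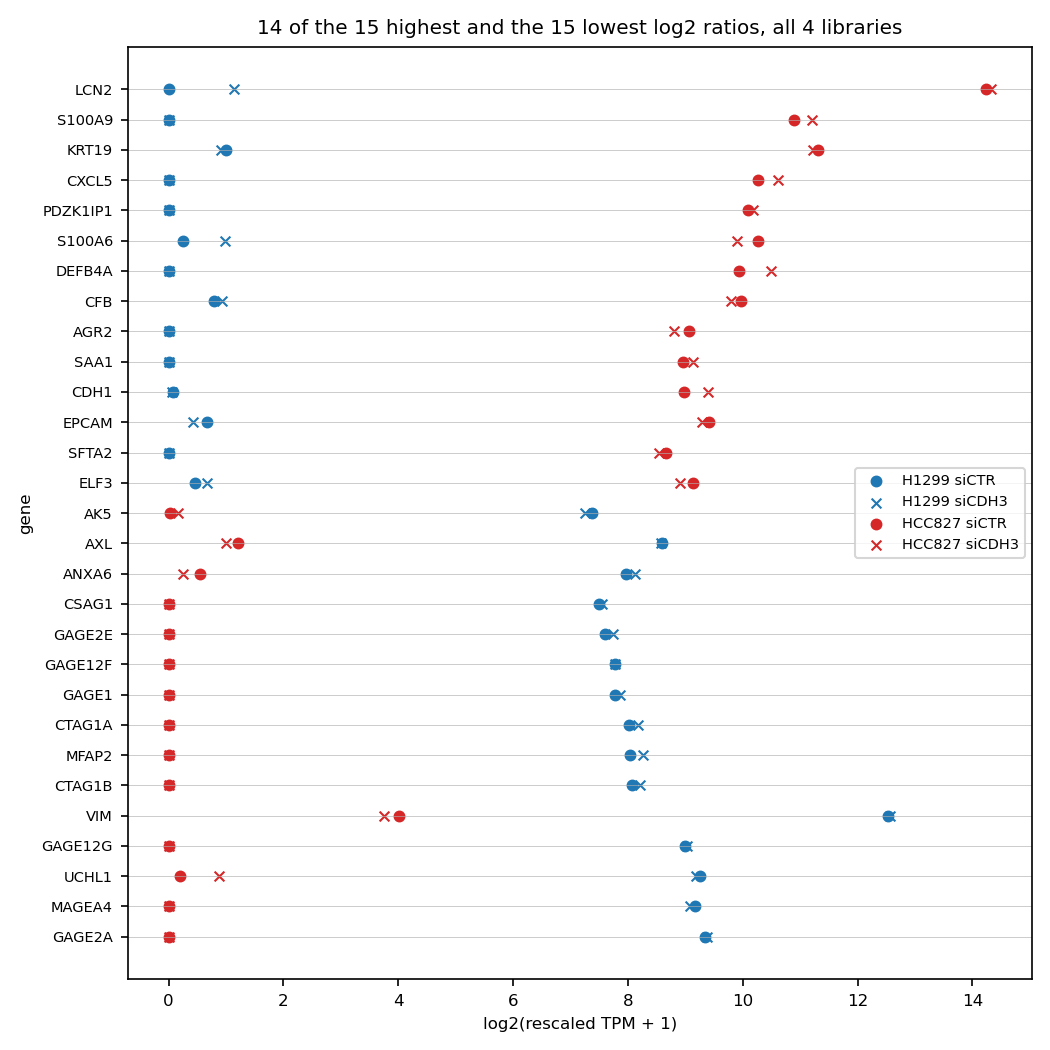
The 15 lowest log2 ratios of the control pair and 14 of the 15 highest are shown as log2(rescaled TPM + 1) in all 4 libraries, with H1299 in blue, HCC827 in red, circles for siCTR and crosses for siCDH3. For every gene shown the 2 libraries of a line lie close together and the lines do not overlap; the widest gap within a line is that of LCN2 in H1299, at 0 and 1.20 TPM.

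Inflammatory chemokines and cytokines were among the lists furthest apart. Of 26 listed genes 21 were compared, 18 were higher in HCC827 and 1 lower, with a median of 4.04. Of the list 7 genes reached a deposited TPM of 5 in H1299 siCTR and 20 in HCC827 siCTR. Their summed level was 4085 TPM in HCC827 and 280.3 in H1299. The neutrophil attractants CXCL5, CXCL1 and CXCL8 were at 1228 TPM in HCC827 and 0 in H1299, 523 TPM in HCC827 and 1.17 in H1299 and 309.97 TPM in HCC827 and 0.561 in H1299. CCL20, which draws dendritic cells and lymphocytes through CCR6, was at 191 and 262 TPM in HCC827 and listed at 0 in both H1299 libraries.

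Not every listed gene was higher. CXCL2, a neighbour and close relative of CXCL1, was at 120.4 and 156 TPM in HCC827 and 102 and 108 in H1299, within 2-fold in the control pair. IL32 was lower, at 5.84 TPM in HCC827 and 14.7 in H1299. Of the cytokines, IL1A was at 88.8 TPM in HCC827 and 0 in H1299, IL1B at 97.1 TPM in HCC827 and 0.139 in H1299 and IL6 at 18.2 TPM in HCC827 and 0 in H1299. TNFAIP2, a protein induced by tumour necrosis factor, was at 511 TPM in HCC827 and 2.31 in H1299. NFKBIA and TNFAIP3, the feedback inhibitors of NF-kB, were at 288 TPM in HCC827 and 61.4 in H1299 and 31.6 TPM in HCC827 and 9.83 in H1299. limma called 18 of the 21 higher and 1 lower.

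Because these genes are textbook targets of NF-kB, its consensus was searched for in their promoters on both strands; this search was chosen after the values were seen. Of the 26 listed genes 21 have a promoter at hand and 11 of these hold a match (52.4%), beside 10.8% of all 27305 promoters and 13.4% of the promoters of compared protein-coding genes. The list gathers known targets, so this share describes the choice of genes and not the lines. Printed below are genes that differ in level between the lines and CXCL2, which lay within 2-fold, although the stretch around its match nearly repeats that of CXCL1. They lie at chr4:73869274-73869373 (plus strand, CXCL1), chr4:74099214-74099313 (minus strand, CXCL2), chr4:73998709-73998808 (minus strand, CXCL5), chr2:227813723-227813822 (plus strand, CCL20) and chr9:128149238-128149337 (plus strand, LCN2) of GRCh38.p14. Capitals mark the match to the consensus, which begins at -79, -78, -91, -79 and -175 from the annotated starts. Binding was not measured.
CXCL1: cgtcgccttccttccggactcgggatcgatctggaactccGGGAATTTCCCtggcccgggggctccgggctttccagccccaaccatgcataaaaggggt
CXCL2: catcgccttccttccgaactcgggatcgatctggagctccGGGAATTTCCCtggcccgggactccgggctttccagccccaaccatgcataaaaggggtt
CXCL5: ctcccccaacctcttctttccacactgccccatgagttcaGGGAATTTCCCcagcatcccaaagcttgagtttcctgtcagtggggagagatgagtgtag
CCL20: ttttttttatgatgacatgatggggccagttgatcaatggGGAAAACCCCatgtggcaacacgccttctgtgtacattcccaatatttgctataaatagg
LCN2: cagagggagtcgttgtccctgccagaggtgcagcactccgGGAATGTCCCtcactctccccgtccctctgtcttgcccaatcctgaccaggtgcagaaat

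Interferon-response genes were split by member. Of 35 listed genes 32 were compared, 16 were higher and 2 lower, with a median of 0.99, and the other 14 lay within 2-fold. MX1, a GTPase that blocks virus replication, was at 107 and 131 TPM in HCC827 and 0.823 and 2.03 in H1299. BST2 (tetherin) was at 291 and 314 TPM in HCC827 and 6.74 and 14.7 in H1299. XAF1, MX2 and IFI27 were at 28.9 TPM in HCC827 and 0 in H1299, 24.5 TPM in HCC827 and 0 in H1299 and 66.1 TPM in HCC827 and 2.87 in H1299. STAT2, a factor that relays the signal, was at 70.9 TPM in HCC827 and 60.8 in H1299, and ISG15 was at 267 TPM in HCC827 and 224 in H1299. IFITM2 was lower, at 14.2 and 25.01 TPM in HCC827 and 419 and 409 in H1299, as was IFIT1 at 24.6 TPM in HCC827 and 63.5 in H1299. IFITM genes are close copies of each other, so the split of reads between them is uncertain. limma called 18 higher and 3 lower, and in the siCDH3 pair the median was 0.66 over the same 32 genes and 0.95 over the members that passed the filter in that pair.

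Of 13 genes that sense nucleic acids 9 were compared, with 2 higher and 2 lower and a median of 0.23. The DNA sensor IFI16 was at 244 and 341 TPM in HCC827 and 13.6 and 12.1 in H1299 and the kinase TBK1, which passes on the signal, at 411 and 422 TPM in HCC827 and 42.5 and 33.3 in H1299. SAMHD1, which removes nucleotides needed by viruses, was at 0.119 and 0.140 TPM in HCC827 and 30.4 and 27.8 in H1299. The DNA sensor cGAS (MB21D1 in the table) was lower too, at 8.57 TPM in HCC827 and 28.9 in H1299. limma called 4 higher and 2 lower.

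Antigen presentation was higher in part. Of 23 listed genes 19 were compared, 8 were higher and 2 lower, with a median of 0.73. The class II genes CD74 and HLA-DRA, usually limited to immune cells and inflamed epithelium, were at 60.4 and 69.1 TPM in HCC827 and 0 and 0.232 in H1299 and 57.9 and 63.9 TPM in HCC827 and 0.342 and 0 in H1299. The immunoproteasome subunits PSMB10 and PSMB8 were at 109 TPM in HCC827 and 14.6 in H1299 and 192 TPM in HCC827 and 42.8 in H1299, and the class I regulator NLRC5 at 15.2 TPM in HCC827 and 2.69 in H1299. The class I heavy chain HLA-B was within 2-fold, at 374 TPM in HCC827 and 486 in H1299. The class I light chain B2M was lower in the control pair but higher in the siCDH3 pair, at 135 and 1365 TPM in HCC827 and 389 and 317 in H1299. CALR (calreticulin), a chaperone, was at 804 TPM in HCC827 and 1658 in H1299. limma called 10 higher and 3 lower.

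EGFR was at 772 and 768 TPM in HCC827 and 30.04 and 28.6 in H1299, a log2 ratio of 4.64 in the control pair and a limma difference of 4.67 ± 0.11 (SE, limma adjusted p = 4.06e-05). Of 14 genes of the EGFR family and its ligands 10 were compared, 6 were higher and 3 lower, with a median of 2.49. The coreceptors ERBB2 and ERBB3 were at 117 TPM in HCC827 and 24.9 in H1299 and 99.7 TPM in HCC827 and 13.5 in H1299. The ligands went in both directions. AREG (amphiregulin) was at 339 and 347 TPM in HCC827 and 1.38 and 1.72 in H1299, EREG (epiregulin) at 141 and 157 TPM in HCC827 and 0.0245 and 0 in H1299 and BTC (betacellulin) at 19.9 TPM in HCC827 and 0.295 in H1299. TGFA was at 15.2 and 16.6 TPM in HCC827 and 107 and 72.7 in H1299, and HBEGF at 3.07 TPM in HCC827 and 12.8 in H1299. NRG2, a ligand of ERBB3 and ERBB4, was at 0.0842 TPM in HCC827 and 18.97 in H1299. limma called 6 higher and 3 lower, each as in the control pair.

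Feedback and output genes of the ERK pathway, which EGFR and NRAS both feed, did not share a direction. All 18 listed genes were compared, 3 were higher and 5 lower, with a median of -0.50. The phosphatases DUSP4 and DUSP6, which switch ERK off, were at 15.8 TPM in HCC827 and 0.693 in H1299 and 59.6 TPM in HCC827 and 26.8 in H1299. The feedback inhibitors SPRY2 and SPRY4 were at 29.9 and 31.2 TPM in HCC827 and 202 and 188 in H1299 and 13.6 and 13.9 TPM in HCC827 and 77.6 and 99.8 in H1299. PHLDA1 was at 94.1 TPM in HCC827 and 525 in H1299. The ETS factors ETV4 and ETV1 went apart, at 46.4 TPM in HCC827 and 18.6 in H1299 and 15.3 TPM in HCC827 and 40.98 in H1299. DUSP5 and EGR1 were near equal, at 94.2 TPM in HCC827 and 96.8 in H1299 and 91.7 TPM in HCC827 and 78.4 in H1299. limma called 3 higher and 7 lower.

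Other receptor tyrosine kinases differed by member. Of 27 listed genes 15 were compared, 5 were higher and 2 lower, with a median of 0.34. MET, the receptor for hepatocyte growth factor, was at 463 and 509 TPM in HCC827 and 46.7 and 37.4 in H1299, and its relative MST1R (RON) at 43.4 and 26.2 TPM in HCC827 and 0.212 and 0.743 in H1299. EPHB2 was at 37.9 TPM in HCC827 and 5.26 in H1299 and DDR1, a collagen receptor, at 134 TPM in HCC827 and 45.04 in H1299. Beside AXL, FGFR1 was lower, at 4.84 and 2.32 TPM in HCC827 and 69.7 and 84.1 in H1299. IGF1R and INSR were within 2-fold, at 18.6 TPM in HCC827 and 10.3 in H1299 and 10.7 TPM in HCC827 and 12.7 in H1299. limma called 7 higher and 5 lower.

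The genes next to EGFR on chromosome 7 were higher as well. Of 17 listed neighbours 14 were compared and all 14 were higher, with a median of 2.997; limma called all 14 higher. In gene order, the 19 consecutive compared genes from IGFBP3 to CHCHD2, with EGFR among them, all had a log2 ratio above 1.7. SEC61G, a subunit of the protein channel of the endoplasmic reticulum, was at 3848 and 3421 TPM in HCC827 and 126 and 214 in H1299. LANCL2 and VOPP1, next to EGFR in this order, were at 228 TPM in HCC827 and 7.84 in H1299 and 866 TPM in HCC827 and 38.01 in H1299. GRB10, an adaptor that restrains receptor kinases, was at 55.3 and 60.1 TPM in HCC827 and listed at 0 in both H1299 libraries. The run ended on one side at TBRG4, with a log2 ratio of 0.79, and on the other at ZNF680, with 0.37. IGFBP3, the main carrier of insulin-like growth factors, was the largest difference in the run, at 1622 and 1436 TPM in HCC827 and 5.82 and 4.53 in H1299. Levels of neighbours differed widely within HCC827, from 7.90 TPM for DDC to 3848 for SEC61G. DNA copy number was not measured.

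**Figure D3:**
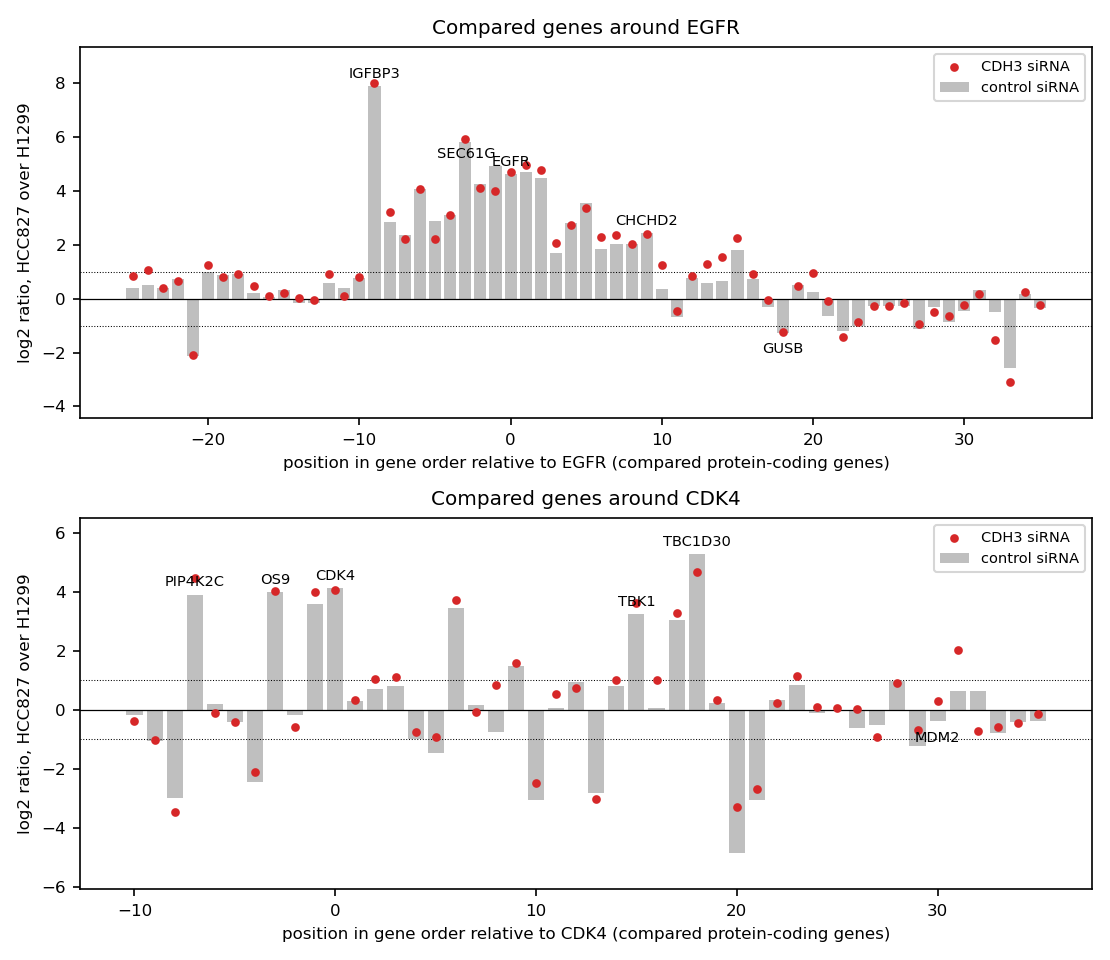
Log2 ratios of HCC827 over H1299 are shown by gene order around EGFR (top) and around CDK4 on chromosome 12 (bottom), as grey bars for the control pair and red points for the siCDH3 pair. Dotted lines mark 2-fold. Around EGFR 19 consecutive genes exceed 1.7, while around CDK4 8 genes at least 4-fold higher stand apart from neighbours that mostly lie within 2-fold or lower.

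A second stretch, around CDK4 on chromosome 12, was described after its values were seen. CDK4, the kinase that starts the cell cycle with cyclin D, was at 1537 and 1481 TPM in HCC827 and 87.4 and 87.2 in H1299. Of the 46 compared genes shown around it, 8 were at least 4-fold higher in HCC827, 10 at least 2-fold lower and 27 within 2-fold. OS9, a lectin of protein quality control, was at 4172 and 4279.5 TPM in HCC827 and 262 and 263 in H1299 and PIP4K2C, a lipid kinase, at 705 TPM in HCC827 and 46.2 in H1299. TSPAN31 was at 289.7 TPM in HCC827 and 23.2 in H1299, and further along the chromosome TBK1, LRIG3 (9.79 TPM in HCC827 and 0 in H1299) and TBC1D30 (112 TPM in HCC827 and 1.92 in H1299) were also among the 8. Most genes between them lay within 2-fold or lower: DTX3 was at 15.9 TPM in HCC827 and 13.97 in H1299, AGAP2 at 9.52 TPM in HCC827 and 10.8 in H1299 and USP15 at 30.5 TPM in HCC827 and 27.4 in H1299. MDM2, a ubiquitin ligase gene further along the same arm, was at 14.5 TPM in HCC827 and 19.4 in H1299, and HMGA2, a chromatin protein of embryonic and mesenchymal cells, was lower at 77.2 TPM in HCC827 and 652 in H1299.

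Over 10823 windows of 21 neighbouring compared protein-coding genes, 339 had a median of at least 2-fold higher and 301 of at least 2-fold lower. A window starts at every gene, so windows overlap and these are not counts of separate regions. The windows described below are the highest and the lowest that share no genes with each other. The highest window ran from TUFT1 to S100A14 on chromosome 1, with a median of 3.33 and 14 of 21 genes higher. It holds the small proline-rich genes and much of the S100 family, which sit side by side. The next was the window around EGFR, from ZMIZ2 to MRPS17, with a median of 2.89, and the third was another stretch of chromosome 1 that starts at MFSD4A, with a median of 2.08. The last of these holds PIGR, the receptor that carries antibodies across epithelium, at 179.99 TPM in HCC827 and 0 in H1299, and the complement regulators CD55 and CD46, at 151 TPM in HCC827 and 34.6 in H1299 and 114 TPM in HCC827 and 26.2 in H1299. The lowest windows were the GAGE genes on the X chromosome (GRIPAP1 to GAGE2A, median -5.24), the MAGEA and CSAG genes on the same chromosome (MTMR1 to MAGEA1, median -3.64) and a stretch of chromosome 19 from ETV2 to TBCB (median -1.83, 18 of 21 genes lower). In the last one APLP1, a relative of the amyloid precursor, was at 1.51 TPM in HCC827 and 184 in H1299 and the microtubule linker CLIP3 at 3.14 TPM in HCC827 and 395 in H1299. These medians were -5.39 to 3.12 in the siCDH3 pair for the 6 windows, each in the same direction.

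Common driver genes mostly lay within 2-fold. Of 20 listed genes 15 were compared, 2 were higher and 1 lower, with a median of 0.06. NFIB and PIK3CA were the 2 higher, at 13.7 TPM in HCC827 and 5.65 in H1299 and 22.03 TPM in HCC827 and 10.1 in H1299. RB1 was lower, at 19.2 TPM in HCC827 and 47.99 in H1299. NRAS was at 71.3 TPM in HCC827 and 68.5 in H1299, MYC at 31.8 TPM in HCC827 and 24.3 in H1299 and STK11 at 43.9 TPM in HCC827 and 58.7 in H1299. limma called 4 higher and 4 lower.

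SMARCA4 and SMARCA2 are the interchangeable ATPases of the SWI/SNF chromatin remodelling complex, and H1299 is known to lack the SMARCA4 protein. SMARCA4 was at 139 and 139.97 TPM in HCC827 and 16.8 and 20.1 in H1299, with a limma difference of 2.86 ± 0.14 (SE, limma adjusted p = 0.000162). SMARCA2 was at 27.4 and 27.1 TPM in HCC827 and 12.8 and 16.6 in H1299. Its log2 ratio of 1.04 was just past 2-fold in the control pair and 0.68 in the siCDH3 pair, so it did not keep to the 2-fold rule. Of 22 subunits 20 were compared, 3 were higher and 6 lower, with a median of -0.34. The lower ones included DPF1, at 1.58 TPM in HCC827 and 10.4 in H1299, ARID2, at 11.2 TPM in HCC827 and 40.97 in H1299, and SMARCD3, at 13.8 TPM in HCC827 and 38.3 in H1299. BRD7, at 91.1 TPM in HCC827 and 45.01 in H1299, was the other subunit counted as higher, and it was only just past 2-fold. limma called 4 higher and 9 lower.

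Most compared lung lineage genes were higher in HCC827. Of 24 listed genes 12 were compared, 9 were higher and 2 lower, with a median of 4.67. Of the list 3 genes reached a deposited TPM of 5 in H1299 siCTR and 11 in HCC827 siCTR, so most of the 12 entered through HCC827 alone. Without a filter the median was 2.15, and with a filter of 1 TPM it was 2.17. NKX2-1, the lineage factor of the distal lung, was at 30.9 and 59.5 TPM in HCC827 and 0.238 and 0.174 in H1299. FOXA1, which opens chromatin in endoderm, was at 86.5 TPM in HCC827 and 1.65 in H1299. NAPSA, a protease of alveolar type II cells used to diagnose adenocarcinoma, was at 206 and 199.6 TPM in HCC827 and 0.992 and 1.92 in H1299, and SFTA2 at 406 TPM in HCC827 and 0 in H1299. The airway mucin MUC5B and the antigen CEACAM6 were at 123 TPM in HCC827 and 0 in H1299 and 69.6 TPM in HCC827 and 0 in H1299. SFTPC and SCGB1A1, markers of mature alveolar type II and club cells, are listed at 0 in both control libraries, and SFTPB was at 3.52 TPM in HCC827 and 0 in H1299. In H1299, labelled as lung, NKX2-1, NAPSA and FOXA1 were all under 2 TPM, whereas ABCA3 and GATA6 were higher there, at 9.95 TPM in HCC827 and 44.6 in H1299 and 7.08 TPM in HCC827 and 23.2 in H1299. limma called 8 higher and 2 lower.

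Squamous and basal genes were also higher in HCC827. Of 18 listed genes 10 were compared, 8 were higher and 0 lower, with a median of 3.80. Of the list 4 genes reached a deposited TPM of 5 in H1299 siCTR and 10 in HCC827 siCTR. SOX2, a stem cell and squamous lineage factor, was at 102 and 128 TPM in HCC827 and 0.632 and 0.875 in H1299, and COL17A1, a hemidesmosome collagen, at 94.4 and 100.4 TPM in HCC827 and 0.917 and 0.619 in H1299. SFN (stratifin) was at 123 TPM in HCC827 and 3.54 in H1299, and SPRR2A and LAMA3 at 19.5 TPM in HCC827 and 0 in H1299 and 54.2 TPM in HCC827 and 2.72 in H1299. The basal keratins KRT5 and KRT14 were under 0.1 TPM in both lines, and TP63, below the filter on deposited TPM, was at 6.46 TPM in HCC827 and 0.203 in H1299. The hemidesmosome integrins ITGB4 and ITGA6 were within 2-fold, at 54.4 TPM in HCC827 and 77.8 in H1299 and 42.1 TPM in HCC827 and 65.9 in H1299. limma called 8 higher and 1 lower.

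Neuroendocrine and neuronal genes were mostly lower in HCC827. Of 24 listed genes 10 were compared, 0 were higher and 8 lower, with a median of -2.53. Of the list 10 genes reached a deposited TPM of 5 in H1299 siCTR and 5 in HCC827 siCTR. Beside UCHL1, the granule proteins CHGB, SCG2 and VGF were at 0.0546 and 0.0475 TPM in HCC827 and 19.1 and 68.1 in H1299, 0.132 TPM in HCC827 and 14.2 in H1299 and 9.66 TPM in HCC827 and 57.5 in H1299. Both H1299 libraries lay above both HCC827 libraries for CHGB, with the siCDH3 library the higher of them. The neurofilament NEFH was at 0 TPM in HCC827 and 6.65 in H1299 and ENO2 at 43.2 TPM in HCC827 and 266 in H1299. limma called 0 higher and 9 lower.

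Cancer-testis antigens, normally limited to germ cells, followed the same direction. Of 25 listed genes 14 were compared, 11 were lower in HCC827 and 2 higher, with a median of -4.15. Of the list 12 genes reached a deposited TPM of 5 in H1299 siCTR and 4 in HCC827 siCTR. Beside MAGEA4, CTAG1B and GAGE1, MAGEA12 was at 0.0645 TPM in HCC827 and 66.8 in H1299 and MAGEA10 at 0.0827 TPM in HCC827 and 37.6 in H1299. PRAME, which is not on the X chromosome, was lower but present in both lines, at 24.5 and 25.4 TPM in HCC827 and 436 and 405 in H1299. DDX43 and the bromodomain gene BRDT went the other way, at 28.8 TPM in HCC827 and 0.246 in H1299 and 13.8 TPM in HCC827 and 0 in H1299, and XAGE1B was near equal at 449 TPM in HCC827 and 398 in H1299. limma called 2 higher and 11 lower.

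HOX genes, which give cells a position along the body axis, were lower in HCC827 in most cases. Of 39 listed genes 23 were compared, 14 were lower and 3 higher, with a median of -2.06. Without a filter the median was -0.84. HOXB4 was at 0.202 and 0.362 TPM in HCC827 and 56.2 and 62.02 in H1299, HOXA7 at 0.567 and 0.983 TPM in HCC827 and 56.6 and 45.2 in H1299 and HOXB2 at 13.6 TPM in HCC827 and 236 in H1299. HOXA4 and HOXC8 were at 0.875 TPM in HCC827 and 35.6 in H1299 and 1.74 TPM in HCC827 and 36.6 in H1299. Members of 1 cluster did not move together: in the A cluster HOXA3 and HOXA10 were higher in HCC827, at 51.6 TPM in HCC827 and 5.92 in H1299 and 18.2 TPM in HCC827 and 2.18 in H1299, and HOXA5 was near equal at 10.8 TPM in HCC827 and 11.04 in H1299. limma called 5 higher and 15 lower.

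**Figure D4:**
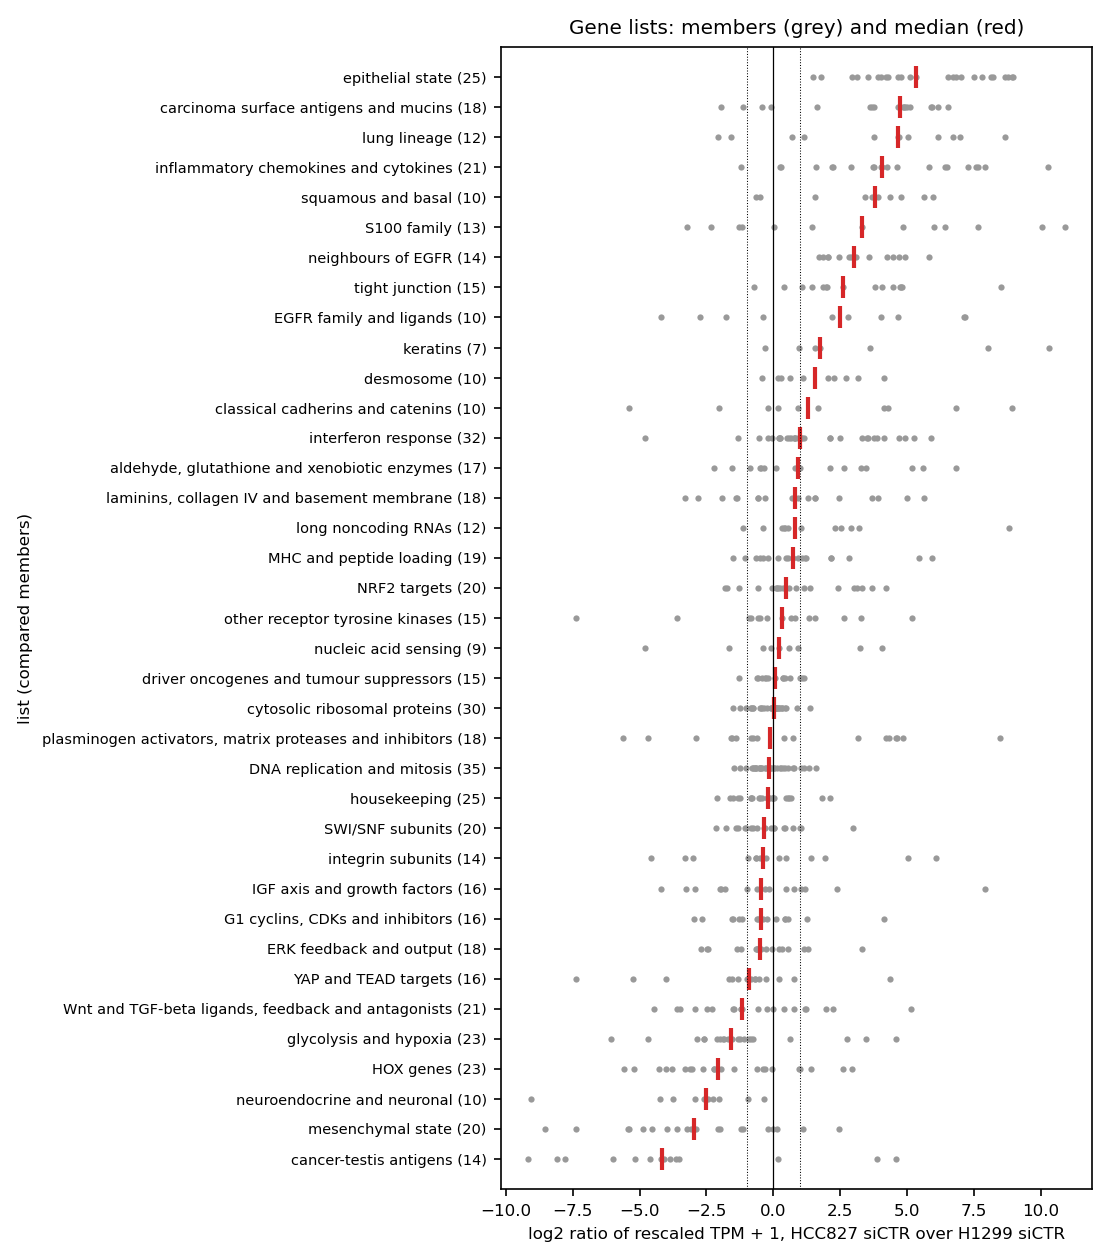
Each row is a gene list with at least 5 compared members, each grey point the log2 ratio of 1 member (HCC827 siCTR over H1299 siCTR) and each red mark the list median; 1 list that is not reported is left out, the number of compared members is in brackets and dotted lines mark 2-fold. Medians run from -4.15 for cancer-testis antigens to 5.34 for the epithelial state, and every list shown except the epithelial state and the neighbours of EGFR has members within 2-fold or on the other side.

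Most compared surface antigens of carcinomas were higher in HCC827. Of 23 listed antigens and mucins 18 were compared, 14 were higher and 2 lower, with a median of 4.75. Of the list 6 genes reached a deposited TPM of 5 in H1299 siCTR and 17 in HCC827 siCTR, so most of the 18 entered through HCC827 alone. The summed level was 1092.9 TPM in H1299 and 1268.5 in HCC827. The folate receptor FOLR1 was at 90.9 and 65.2 TPM in HCC827 and 0 and 0.0843 in H1299, CD24 at 189.6 TPM in HCC827 and 2.16 in H1299, and the mucins MUC1, MUC16 and MUC20 at 92.1 TPM in HCC827 and 6.70 in H1299, 28.8 TPM in HCC827 and 0 in H1299 and 57.6 TPM in HCC827 and 0.00000116 in H1299. CEACAM5, the carcinoembryonic antigen, was at 33.8 TPM in HCC827 and 0 in H1299. CD44 went the other way, at 186 and 202 TPM in HCC827 and 729 and 636 in H1299, as did TM4SF1 at 114 TPM in HCC827 and 254 in H1299. limma called 14 higher and 2 lower.

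The S100 calcium-binding proteins split by member, also among those that sit side by side on chromosome 1. Of 17 listed genes 13 were compared, 8 were higher and 4 lower, with a median of 3.33. Without a filter the median was 1.25. S100A6 was at 1226 and 958 TPM in HCC827 and 0.185 and 0.9746 in H1299 and S100A14 at 235 and 219.6 TPM in HCC827 and 0.186 and 0 in H1299. S100P and S100A7 were at 96.04 TPM in HCC827 and 0.133 in H1299 and 62.2 TPM in HCC827 and 0 in H1299. S100A4, linked to motile and mesenchymal cells, was lower at 5.16 and 6.02 TPM in HCC827 and 56.5 and 24.4 in H1299, and S100A10, S100A2 and S100A1 were at 202 TPM in HCC827 and 459 in H1299, 8.09 TPM in HCC827 and 20.9 in H1299 and 1.94 TPM in HCC827 and 13.7 in H1299. S100A13 was at 77.5 TPM in HCC827 and 75.4 in H1299. limma called 8 higher and 4 lower.

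Integrins, the matrix receptors, were mixed. Of 18 listed subunits 14 were compared, 4 were higher and 3 lower, with a median of -0.39. These counts are close to the 19.5% and 18.5% of all compared genes, so the values below describe single members. ITGB6, the epithelial partner that activates latent TGF-beta, was at 86.8 and 90.8 TPM in HCC827 and 1.69 and 0.811 in H1299. ITGB2, known as a leukocyte subunit, was at 67.03 and 65.99 TPM in HCC827 and 0 and 0.0704 in H1299, while PTPRC, the pan-leukocyte marker, was at 0.0547 TPM in HCC827 and 0 in H1299. ITGA4 and ITGB3 were lower, at 0.105 and 0.0551 TPM in HCC827 and 25.1 and 22.6 in H1299 and 0.654 TPM in HCC827 and 12.1 in H1299, and ITGA10 at 0.140 TPM in HCC827 and 10.1 in H1299. The common chain ITGB1 was at 769 TPM in HCC827 and 663 in H1299. limma called 5 higher and 6 lower.

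Basement membrane genes differed by member. Of 24 listed genes 18 were compared, 8 were higher and 5 lower, with a median of 0.81. Among the chains of laminin-332, the epithelial laminin, LAMA3 was higher as above and LAMB3 was at 340.4 and 350.3 TPM in HCC827 and 115 and 106 in H1299. The collagen IV chain COL4A2 was at 30.95 and 40.3 TPM in HCC827 and 0 and 0.0178 in H1299. The linkers NID1 and NID2 were lower, at 1.013 TPM in HCC827 and 13.3 in H1299 and 0.536 TPM in HCC827 and 14.03 in H1299, and LAMB2 was at 59.7 TPM in HCC827 and 228 in H1299. limma called 10 higher and 6 lower.

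Proteases and their inhibitors had no common direction. Of 26 listed genes 18 were compared, 7 were higher and 6 lower, with a median of -0.12. The leukocyte protease inhibitor SLPI was at 357 and 384 TPM in HCC827 and listed at 0 in both H1299 libraries, and PI3 (elafin) at 23.1 TPM in HCC827 and 0 in H1299. MMP14, a membrane-bound collagenase, was lower, at 2.66 and 4.13 TPM in HCC827 and 93.4 and 87.5 in H1299. MMP7, made by epithelial cells, was at 17.5 TPM in HCC827 and 0 in H1299 and MMP2 at 0.318 TPM in HCC827 and 8.74 in H1299. The urokinase PLAU was at 564 TPM in HCC827 and 335 in H1299 and its receptor PLAUR at 79.2 TPM in HCC827 and 143 in H1299. limma called 8 higher and 9 lower.

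Most glycolysis genes were lower in HCC827. Of 25 listed genes of glycolysis and hypoxia 23 were compared, 16 were lower and 3 higher, with a median of -1.58. GAPDH, often used as a reference gene, was at 8042 and 7796 TPM in HCC827 and 34348 and 35183 in H1299, and it was the most abundant gene of H1299 siCTR at 3.43% of rescaled TPM. GPI, the second enzyme of the pathway, was at 147 and 156 TPM in HCC827 and 3844 and 3892 in H1299. ALDOA and ENO1 were at 669 TPM in HCC827 and 4042 in H1299 and 1951 TPM in HCC827 and 5846 in H1299, and the glucose transporter SLC2A3 at 3.82 and 3.46 TPM in HCC827 and 319 and 340.3 in H1299. LDHA was at 532 TPM in HCC827 and 1945 in H1299, whereas its partner LDHB was at 1194 TPM in HCC827 and 769.6 in H1299. The hypoxia-linked genes EGLN3, NDRG1 and the aldolase ALDOC went the other way, at 22.8 TPM in HCC827 and 0 in H1299, 167 TPM in HCC827 and 14.4 in H1299 and 23.1 TPM in HCC827 and 2.61 in H1299. Summed over the list, the level was 60779.8 TPM in H1299 and 16219 in HCC827. limma called 4 higher and 19 lower.

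Targets of NRF2, the regulator of antioxidant defence, were mixed. Of 22 listed genes 20 were compared, 8 were higher and 3 lower, with a median of 0.48. FTH1 and FTL, the heavy and light chains of the iron store ferritin, went in opposite directions, at 6642 and 7202 TPM in HCC827 and 675 and 836 in H1299 and 2558 and 2719.5 TPM in HCC827 and 6177 and 6996 in H1299. The reductases AKR1C3 and AKR1B10 were at 17.3 TPM in HCC827 and 0 in H1299 and 11.8 TPM in HCC827 and 0 in H1299, and the exporters ABCC2 and ABCC3 at 25.9 TPM in HCC827 and 2.10 in H1299 and 240.4 TPM in HCC827 and 28.8 in H1299. HMOX1 and OSGIN1 were lower, at 21.9 TPM in HCC827 and 75.6 in H1299 and 20.2 TPM in HCC827 and 72.7 in H1299. NQO1 and GCLM, the usual readouts, were near equal at 249 TPM in HCC827 and 228 in H1299 and 18.6 TPM in HCC827 and 16.5 in H1299. limma called 10 higher and 3 lower.

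Of 26 listed aldehyde, glutathione and xenobiotic enzymes 17 were compared, 7 were higher and 2 lower, with a median of 0.93. The vitamin D hydroxylase CYP24A1 was at 112 and 135 TPM in HCC827 and 0 and 0.0344 in H1299 and ALDH1A3, which makes retinoic acid, at 206 and 241 TPM in HCC827 and 3.26 and 3.01 in H1299. MGST1, a microsomal glutathione transferase, was at 810.2 TPM in HCC827 and 21.3 in H1299. The lower pair was ALDH3A2, at 33.8 TPM in HCC827 and 100.1 in H1299, and GSTM1, at 0.518 TPM in HCC827 and 5.97 in H1299. GSTM1 is lost from many human genomes and resembles its neighbours, so its level is uncertain. limma called 10 higher and 4 lower.

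Of 21 listed G1 cyclins, kinases and inhibitors 16 were compared, 2 were higher and 6 lower, with a median of -0.48. Beside CDK4, E2F1 was higher, at 25.6 TPM in HCC827 and 10.1 in H1299. The CDK4 and CDK6 inhibitors CDKN2C and CDKN2D were lower, at 5.05 and 5.48 TPM in HCC827 and 46.5 and 42.3 in H1299 and 5.06 and 7.36 TPM in HCC827 and 37.1 and 34.98 in H1299, and CDK6 was at 20.1 TPM in HCC827 and 58.4 in H1299. CDKN1A (p21), an inhibitor of several cyclin-dependent kinases, was lower too, at 40.7 and 40.7 TPM in HCC827 and 121 and 95.3 in H1299. CDKN2A (p16 and ARF) was at 386 TPM in HCC827 and 287 in H1299. limma called 4 higher and 7 lower. All 35 listed genes of DNA replication and mitosis were compared, 4 were higher and 3 lower, with a median of -0.15. CDC6 and PCNA were at 22.2 TPM in HCC827 and 6.65 in H1299 and 139 TPM in HCC827 and 54.2 in H1299, the kinesins KIF20A and KIF11 at 21.6 TPM in HCC827 and 62.1 in H1299 and 14.2 TPM in HCC827 and 35.5 in H1299, and MKI67 at 19.99 TPM in HCC827 and 31.9 in H1299. limma called 7 higher and 11 lower.

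Targets of YAP and TEAD, the Hippo pathway's output, differed by member. Of 18 listed genes 16 were compared, 6 were lower and 1 higher, with a median of -0.91, beside 18.5% lower and 19.5% higher among all compared genes. Beside AXL, CTGF (CCN2) was at 2.47 and 1.95 TPM in HCC827 and 55.03 and 57.9 in H1299 and DLC1, a GTPase-activating protein, at 0 and 0.0163 TPM in HCC827 and 37.2 and 32.7 in H1299. WWTR1 (TAZ) was at 41.5 TPM in HCC827 and 124 in H1299 and YAP1 at 78.1 TPM in HCC827 and 67.5 in H1299. Tissue factor (F3) went the other way, at 93.2 and 97.2 TPM in HCC827 and 3.66 and 3.24 in H1299. limma called 2 higher and 11 lower.

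Of 35 listed Wnt and TGF-beta ligands, feedback genes and antagonists 21 were compared, 11 were lower and 5 higher, with a median of -1.17. TGFB1 was at 57.5 and 58.1 TPM in HCC827 and 449 and 487 in H1299. The Wnt factor TCF7L1 and the antagonists DKK3 and SFRP1 were lower, at 0.591 TPM in HCC827 and 34.1 in H1299, 6.96 TPM in HCC827 and 87.7 in H1299 and 0 TPM in HCC827 and 11.04 in H1299. WNT7B, a ligand of the lung epithelium, was at 52.6 and 45.5 TPM in HCC827 and 0.537 and 0.293 in H1299, and LGR4 at 38.4 TPM in HCC827 and 7.32 in H1299. ID1, a target of the BMP branch, was at 593 TPM in HCC827 and 264 in H1299, while ID3 was at 67.2 TPM in HCC827 and 190.3 in H1299. limma called 5 higher and 10 lower. The list median depends on the filter, and without one it was -0.19.

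Of 20 listed genes of the IGF axis and other growth factors 16 were compared, 4 were higher and 6 lower, with a median of -0.46. Beside IGFBP3, IGFBP2 was higher, at 61.8 TPM in HCC827 and 11.04 in H1299, and IGFBP6 lower, at 9.19 and 6.82 TPM in HCC827 and 76.9 and 85.1 in H1299. ANGPTL4, which blocks lipoprotein lipase, was at 8.13 and 9.14 TPM in HCC827 and 166 and 190.1 in H1299. MDK (midkine) was at 778 TPM in HCC827 and 338 in H1299 and its relative PTN at 0 TPM in HCC827 and 8.68 in H1299. VEGFA was at 240.3 TPM in HCC827 and 116 in H1299 and VEGFC at 26.7 TPM in HCC827 and 53.4 in H1299. limma called 3 higher and 7 lower.

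The genes assumed to be steady were near equal as lists but not gene by gene. All 30 listed cytosolic ribosomal protein genes were compared, 1 was higher and 3 lower, with a median of 0.02. RPL19 was higher, at 5078 TPM in HCC827 and 1948 in H1299, and RPS16, RPS19 and RPL30 were lower, at 1408 TPM in HCC827 and 3968 in H1299, 331 TPM in HCC827 and 788 in H1299 and 1589.98 TPM in HCC827 and 3221 in H1299. Ribosomal protein genes have many processed copies, so single levels are uncertain. Of the 25 housekeeping genes, all compared, 2 were higher and 5 lower, with a median of -0.21. ACTB, HPRT1 and PSMB4 were at 2561 and 2590.3, 99.3 and 101 and 411 and 408 TPM in HCC827 and H1299. TFRC, the transferrin receptor, was at 141 TPM in HCC827 and 31.9 in H1299, against TBP at 22.8 TPM in HCC827 and 58.2 in H1299 and GUSB at 56.8 TPM in HCC827 and 137 in H1299. limma called 3 ribosomal genes higher and 10 lower, and 4 housekeeping genes higher and 9 lower.

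Of 18 listed long noncoding RNAs 12 were compared, 6 were higher and 1 lower, with a median of 0.80. UCA1, found in many carcinomas, was at 444 and 450.2 TPM in HCC827 and listed at 0 in both H1299 libraries. MIR205HG, the host of a microRNA that targets ZEB1, was at 8.12 TPM in HCC827 and 0 in H1299, and H19 at 9.87 TPM in HCC827 and 0.460 in H1299. LINC00511 was at 55.1 TPM in HCC827 and 8.82 in H1299. NEAT1 was lower, at 20.5 and 17.8 TPM in HCC827 and 46.03 and 79.05 in H1299, and MALAT1 was at 108 TPM in HCC827 and 86.01 in H1299. limma called 6 higher and 2 lower.

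Few markers of other cell types passed the filter. Of 20 hematopoietic markers only CD68, a lysosomal protein also made outside macrophages, was compared, at 189 TPM in HCC827 and 141 in H1299; CD3D and MS4A1 are listed at 0 in all 4 libraries. Of 12 endothelial markers none was compared, and their sum was 3.33 TPM in HCC827 and 7.59 in H1299. Of 15 fibroblast markers FBLN1, at 3.68 TPM in HCC827 and 37.8 in H1299, and COL1A1 were compared, and COL1A2 is listed at 0 in all 4 libraries. The fibroblast sum was 13.3 TPM in HCC827 and 48.7 in H1299.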

How the data were processed

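Total RNA of 4 samples was sequenced on Illumina libraries, per the labels' protocols. The authors deposited TPM values for 58174 genes in 1 column per library. The genome build was hg19, per the submitters' processing notes; no source used here names the aligner, the counter or the strandedness. Depth is unknown, so the precision of low values is too.

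Each column was rescaled to a sum of 1e+06 without its 37 genes named MT-. The control pair was compared as the log2 ratio of TPM + 1 for genes with a deposited TPM of at least 5 in either library, with no test. The pseudocount understates changes of low genes, and no fold is given against a value of 0. The line term was fitted with limma 3.58.1 (R 4.3.3) over all 4 libraries on log2(TPM + 1) of 12904 genes (2 residual degrees of freedom), with Benjamini-Hochberg adjustment over all of them. Its p-values measure only the spread between the 2 siRNA treatments of a line, which may be technical. GENCODE release 29 gave gene types and gene order for 57836 of 58174 identifiers. It is on another build than the files, so no gene coordinates are given from it. Promoters came from RefSeq (GRCh38.p14), the first entry per symbol.

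The members and the 41 gene lists (916 entries, 915 matched) were chosen with earlier results of these data known, and each list's result is printed but 1. That list and some single genes are not reported here. Names follow a rule: 13 fixed genes, the 15 highest and 15 lowest protein-coding genes, up to 5 members per list with the largest ratios and up to 3 against its majority, 5 near-equal genes and 4 with opposite directions in the 2 pairs. Other names were chosen after their values were seen. Alternatives covered the pseudocount, the filter, the scaling, the fold rule, read-through genes and leaving out each library. One of them, rescaling also without nuclear copies of mitochondrial genes, was added after the data were seen. The scripts were tested on simulated data.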

Additional observations from a re-analysis of the deposited data

Results flagged for a closer look

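Among the 12564 genes compared, 10 were at least 2-fold apart in opposite directions after the control and the CDH3 siRNA. The first 4 by the size of the smaller ratio are C7orf55-LUC7L2, MRPL34, MIR497HG and B2M, and in none was the difference between the pairs tested. Values of a line are given for siCTR and then siCDH3. For the read-through gene C7orf55-LUC7L2 the log2 ratio of HCC827 over H1299 was 3.78 after control siRNA and -3.85 after CDH3 siRNA, with 12.8 and 0 TPM in HCC827 and 0 and 13.4 in H1299. A read-through gene shares exons with its neighbours, so its level depends on how reads were assigned. For MRPL34, a mitochondrial ribosomal protein, the ratios were 1.97 and -2.26, with 140.01 and 32.8 TPM in HCC827 and 35.1 and 161 in H1299. For MIR497HG, an antisense RNA, they were -1.76 and 2.21, with 1.32 and 4.79 TPM in HCC827 and 6.88 and 0.253 in H1299. For B2M, the light chain of class I MHC, they were -1.52 and 2.10, with 135 and 1365 TPM in HCC827 and 389 and 317 in H1299. The B2M value of HCC827 siCTR was the lowest of all libraries and that of HCC827 siCDH3 the highest.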

How the results depend on the processing

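With 1 library a group, the control pair has no spread to test, and TPM gives no depth. Of its counts, genes higher in HCC827 numbered 1318 with a filter of 20 TPM, 3936 with no filter, 3792 with a 1.5-fold and 1137 with a 4-fold rule. Genes lower numbered 1325 with the 20 TPM filter, 3498 on deposited TPM, 3543 with the 1.5-fold and 998 with the 4-fold rule. With the filter of 5 set on rescaled TPM, 13387 genes were compared, 2787 of them higher and 2430 lower. In the siCDH3 pair higher genes numbered 1434, 4110, 4067 and 1183 with the 20 TPM filter, no filter, 1.5-fold and 4-fold rules, and lower genes 1253, 3397 and 991 with the 20 TPM filter, no filter and the 4-fold rule. In limma the 20 TPM filter left 2457 higher and 2392 lower, and deposited TPM 2804 higher and 5405 lower. Of the genes that limma called, 34.2% were higher on deposited TPM, against 53.1% in the main fit. Leaving out 1 library each gave 2394 to 3888 higher and 2201 to 3346 lower. With siRNA as a replicate block limma called 4218 higher and 3712 lower; the labels give each group 1 sample, so this pairs the treatments and no replicate cultures. The limma call of SMARCA2 was lost without either HCC827 library, and its log2 ratio was 0.86 with a pseudocount of 5, 0.61 on deposited TPM and 0.92 with quantile normalization. Of 825 genes recomputed, those at least 2-fold apart that turned direction did so only in the siCDH3 pair: C7orf55-LUC7L2 at -3.85, MRPL34 at -2.26, B2M at 2.10, ID2 at -1.33 and LAMP3 at -0.057. MIR497HG, described above, is below the filter in that pair. No list median past 2-fold changed direction in any alternative run. Several depended on the filter: without one the median log2 ratio was 0.17 for cadherins and catenins, 0.96 for desmosome genes, -0.84 for HOX genes and -0.19 for Wnt and TGF-beta genes, all no longer past 2-fold, and 1.25 for the S100 family, 1.06 for the EGFR family, 1.05 for keratins and 2.15 for lung lineage genes, closer to 0 than with the filter. The cause of these shifts was not tested.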

Other observations

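Whole chromosomes leaned one way or the other. On chromosome 6 the median log2 ratio of compared protein-coding genes was -0.55 and 30.9% of 599 genes were lower in HCC827, and on chromosome 19 it was -0.37 with 31.9% of 856 lower. Chromosome 5 had a median of -0.34. On chromosomes 16, 1 and 11 the medians were 0.35, 0.32 and 0.29. In the siCDH3 pair chromosome 6 stood at -0.45, chromosome 19 at -0.43 and chromosome 16 at 0.31. DNA copy number was not measured, and scaling moves all of these medians together.

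Nuclear copies of mitochondrial genes followed the mitochondrial share. The 405 such genes took 1.70% and 1.58% of rescaled TPM in the siCTR and siCDH3 libraries of HCC827, against 0.131% and 0.176% in those of H1299. One of them, MTATP6P1, was at 10093 TPM in HCC827 and 37.96 in H1299 after control siRNA, rank 3 among all genes of HCC827 siCTR. Reads from the mitochondrial genome and from a near-identical nuclear copy cannot be told apart in gene totals.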
